A study of Bos taurus with 4 samples.

Results

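The inhibitors of DNA binding (ID genes) were followed in bovine blastocysts sired by bulls at 10 or at 16 months of age. The family has 4 members in the cow, ID1 to ID4. Its probes were found by the gene symbol that the platform annotation gives them. They stood for 3 of the 15216 gene symbols on the array and numbered 7 of its 43794 embryo probes, with 1 probe for ID1, 1 for ID2 and 5 for ID3. No probe carried the symbol ID4, so ID4 was not analysed here. The family was chosen by the measured age ratio of its brightest ID3 probe, EMBV3_23014. The age ratios of the ID probes are therefore given as a description, with no test of the family.

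ID proteins are helix-loop-helix proteins without a DNA-binding region. They pair with the E proteins TCF3, TCF4 and TCF12, which keeps these from forming working dimers with tissue-specific basic helix-loop-helix (bHLH) factors. In mammalian cells bone morphogenetic protein (BMP) ligands bind receptor kinases that phosphorylate SMAD1, SMAD5 and SMAD9, and these enter the nucleus with SMAD4 and switch on ID1, ID2 and ID3 among other targets. In the mouse preimplantation embryo, Id2 is known as an early marker of the trophectoderm, the outer layer that forms the placenta.

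The embryos were produced in vitro from oocytes of slaughterhouse ovaries, and sperm came from 4 bulls sampled at both ages, per the design. On each of 4 arrays, embryos of a 10-month sire were compared with embryos of a 16-month sire. The younger sire's sample was in Cy5 on replicates 1 and 2 and in Cy3 on replicates 3 and 4. The labels do not tie an array to a bull or say how many embryos a sample held, and no source used here gives the breed. The 4 arrays are numbered as biological replicates, but p-values measure only the spread between these arrays.

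A spot counted as above background where it exceeded the median of the negative control by 2 median absolute deviations, and between 76.4% and 82.1% of probes did so in either channel of an array. Before the ratios are read as age effects, the dyes have to be considered. Across all 36325 tested probes, the ratio of 10 over 16 months correlated at r = 0.32 between replicates 1 and 2 and at 0.12 between replicates 3 and 4. Between arrays of opposite dye orientation it correlated at -0.14 to -0.30, so single-array ratios carry a dye component. Replicate 3 had the widest ratios, with an SD over probes of 0.47 against 0.30 to 0.32 on the other arrays. All 12 tested trophectoderm markers and all 7 tested inner cell mass markers were above background in both samples of each array, against 66.3% of all genes tested.

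All 7 ID probes were tested. The ID1 probe, EMBV3_06655, and the ID2 probe, EMBV3_35871, were above background in both samples of all 4 arrays. The brightest ID3 probe was above background in the 16-month sample of all 4 arrays and in the 10-month sample of 3. On replicate 3 its 10-month spot had an intensity of 209 against a limit of 235.5.

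The other 4 ID3 probes were at or close to the negative control. EMBV3_32224 was above background in both samples of all 4 arrays, and EMBV3_37773 and EMBV3_26261 missed it only in the 10-month sample of replicate 4. EMBV3_39107 was above background in the 10-month sample of replicate 2 and in the 16-month sample of replicate 3, and in no other sample. Signals of these 4 probes lay between 0.835 and 2.21 times the negative control median. The brightest ID3 probe lay at 1.08 to 7.61 times that median, the ID1 probe at 1.30 to 3.70 times and the ID2 probe at 2.56 to 9.87 times. A probe this close to the negative control has limited room to show a fold difference.

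ID3, which opposes E protein activity in many embryonic cell types, had the lowest ratio of the family. On replicates 1 to 4 the log2 ratio of 10 over 16 months of its brightest probe was -0.47, -2.17, -0.85 and -0.16. All 4 arrays were on the same side, replicate 2 was far lower than the others, and replicate 4 was close to 0. The SD of the 4 ratios was 0.89, about as large as their mean.

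The fitted log2 ratio of this probe, which sets the dye effect aside, was -0.91 ± 0.26 (SE, n = 4 arrays), a 1.88-fold lower signal at 10 months. It was the second lowest of the 36325 fitted ratios but ranked only 116 by p, because its residual spread was wider than that of 99.4% of probes. Its adjusted p in limma over all tested probes was 0.957. In whole embryos, fewer cells of a type and less RNA per cell cannot be told apart.

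**Figure D1:**
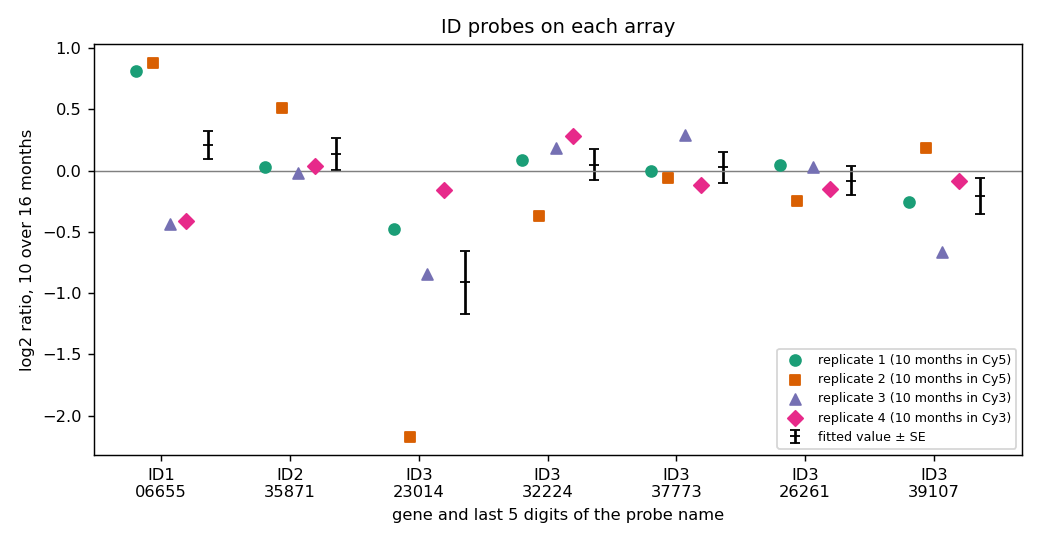
Log2 ratio of 10 over 16 months (vertical axis) of each of the 7 ID probes (horizontal axis) on the 4 arrays, with the fitted value and its standard error in black. The brightest ID3 probe (EMBV3_23014) lies below 0 on all 4 arrays, with replicate 2 at -2.17, while the ID1 probe lies above 0 on replicates 1 and 2 and below 0 on replicates 3 and 4.

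The same probe was also followed as a signal in each sample. After scaling of the 4 arrays to a common brightness, its log2 signal in the 10-month samples of replicates 1 to 4 was 7.95, 8.14, 6.49 and 8.02. In the 16-month samples it was 8.43, 10.31, 7.34 and 8.18. The 10-month sample was the dimmer of the pair on each array, but the ranges of both ages overlapped. The means were 7.65 ± 0.78 at 10 months and 8.56 ± 1.25 at 16 months (SD, n = 4). The 16-month sample of replicate 2 was the brightest of the 8, and the 10-month sample of replicate 3, which was not above background, the dimmest.

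Within a dye, the unscaled spots can be set side by side as multiples of the negative control. In Cy5, the 10-month samples of replicates 1 and 2 had an ID3 signal of 2.58 and 3.36 times the control, and the 16-month samples of replicates 3 and 4 had 1.62 and 3.56 times. In Cy3, the 10-month samples of replicates 3 and 4 had 1.08 and 2.20 times, and the 16-month samples of replicates 1 and 2 had 2.61 and 7.61 times. The ages overlapped in Cy5. In Cy3 both 10-month values were the lower ones, but each age had only 2 samples, from different arrays of unlike brightness. How many other probes show such a separation was not counted. The probe was also chosen by its age ratio, so these values are a description.

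The 24 spots around this ID3 spot on the slide, within 2 rows and 2 columns, had median log2 ratios of 0.079, 0.17, -0.029 and -0.030 on replicates 1 to 4. On replicate 2 the ratios of those neighbours ran from -0.50 to 0.67, so the value of -2.17 was not shared by the surrounding spots. On replicate 3, whose neighbours ran from -0.94 to 1.47, the ID3 value of -0.85 lay within their range. The same held on replicate 4, with -0.16 against neighbours from -0.74 to 0.65. On replicate 1 the ID3 value of -0.47 was just below the lowest neighbour, at -0.46.

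The other 4 ID3 probes did not show the pattern of the brightest one. EMBV3_32224 had log2 ratios of 0.086, -0.37, 0.19 and 0.29, with a fitted value of 0.047 ± 0.13 (SE, n = 4). EMBV3_37773 had -0.0066, -0.057, 0.29 and -0.12, with 0.027 ± 0.12. EMBV3_26261 had 0.048, -0.25, 0.031 and -0.15, with -0.081 ± 0.12. On replicate 2, where the brightest probe was lowest, the first and the last of these were also at their lowest, by a much smaller margin. EMBV3_39107, which was below background in 6 of its 8 samples by the counts above, had -0.26, 0.18, -0.66 and -0.082, with a fitted value of -0.21 ± 0.15.

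Over the 5 ID3 probes the mean fitted ratio was -0.22 and the median -0.081, with 3 probes below and 2 above 0. The fitted ratios of the 5 probes spanned 0.96 on the log2 scale. Of 43 genes with 5 tested probes, ID3 was the only 1 with a span that wide, and the median span was 0.31. The low end of the ID3 span is the brightest probe, by whose ratio the family was chosen. A wide span follows from that choice, so the rank is a description only. The sources used here do not say which ID3 transcript or stretch each probe targets.

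ID1, the family member most widely used as a readout of BMP signalling, did not follow ID3. Its log2 ratio of 10 over 16 months was 0.81, 0.88, -0.44 and -0.41 on replicates 1 to 4. The sign changed with the dye orientation, and ID1 was brighter in Cy5 than in Cy3 on all 4 arrays. The fitted age ratio was 0.21 ± 0.11 (SE, n = 4), positive where that of ID3 was negative, with an adjusted p of 0.957 in limma.

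The log2 ratio of Cy5 over Cy3 for ID1 was 0.64 ± 0.11 in the fit, larger than its age ratio. The dye effect did not pass the test (limma, adjusted p = 0.123), as it did for 0.011% of probes. It passed without replicate 3 (limma, adjusted p = 0.0356), where 2.05% of probes did, and without replicate 4 (0.0147), where 8.58% did. Around the dye difference the ID1 arrays were close together, with a residual spread wider than that of only 2.03% of probes. Scaled log2 signals of ID1 were 8.50, 7.94, 7.29 and 7.77 in the 10-month samples and 7.69, 7.06, 7.73 and 8.19 in the 16-month samples. The ages overlapped, and within an array the Cy5 sample was the brighter.

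ID2 was nearly equal at both ages on 3 arrays. Its log2 ratio was 0.026, 0.51, -0.022 and 0.037, and replicate 2 was the 1 array that stood apart, on the side opposite to ID3. The fitted ratio was 0.14 ± 0.13 (SE, n = 4; limma, adjusted p = 0.957) and came to 0.016 without replicate 2. Scaled log2 signals were 9.36, 9.11, 8.66 and 9.63 at 10 months and 9.34, 8.59, 8.68 and 9.60 at 16 months. The signal moved more between arrays than between the ages.

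**Figure D2:**
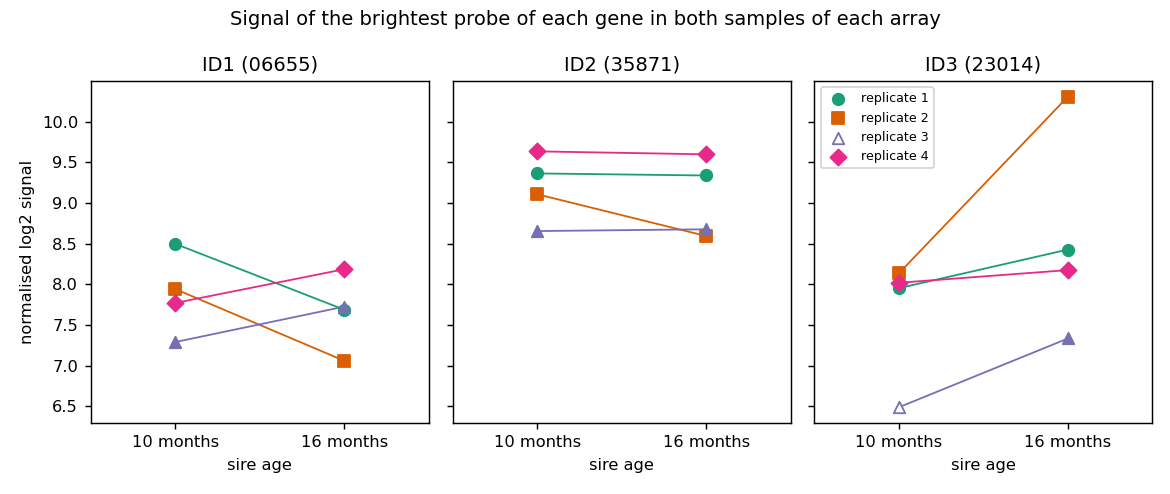
Scaled log2 signal (vertical axis) of the brightest probe of ID1, ID2 and ID3 in the 10-month and 16-month samples (horizontal axis), with a line joining both samples of an array and an open symbol for a spot not above background. ID3 is higher at 16 than at 10 months on each array, most on replicate 2 (8.14 to 10.31), whereas the ID1 lines slope down on replicates 1 and 2 and up on replicates 3 and 4.

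The counts of the family were set beside those of all tested probes. None of the 7 ID probes passed an adjusted p of 0.05 in limma, and neither did any other probe (0% of 36325). At an unadjusted p under 0.05, 1 of the 7 was below the threshold, against 3.96% of all probes. The brightest ID3 probe was also the 1 of 7 that was lower at 10 months on all 4 arrays, a pattern shown by 4.76% of probes. None of the 7 was higher on all 4 arrays, against 4.61% of probes. These counts use the contrast by which the family was chosen. The median fitted ratio of the 7 probes was 0.027, with 3 below and 4 above 0, and that of all tested probes was -0.0018.

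The likeness of the relatives to ID3 was measured as the Euclidean distance between the 4 log2 ratios of a probe and those of the brightest ID3 probe. ID1 lay at a distance of 3.35 and ID2 at 2.86, both farther than the median of 2.45 over all tested probes. For both the widest gap was on replicate 2, with 0.88 for ID1 and 0.51 for ID2 against -2.17 for ID3. These distances therefore rest largely on that array. A probe with small ratios also lies far from this ID3 probe, so the median reflects the size of the ID3 ratios too. The family was chosen by the ratio of this ID3 probe, so the distances are a description with no test. For ID1 98.4% of probes were at least as close to ID3, and for ID2 87.7%. The other 4 ID3 probes lay at 2.17 to 2.44. These single-array ratios keep the dye effect. With the fitted dye effect of each probe removed, ID1 lay at 2.61 and ID2 at 2.65, against a median of 2.27, and the order of ID1 and ID2 rested on the dye. At those distances 86.0% and 87.6% of probes were at least as close to ID3, and the other 4 ID3 probes lay at 2.03 to 2.34.

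The 5 named genes closest to ID3 were SIX3, CWC25, RGS2, BTG4 and KCTD8, at distances of 1.20 to 1.40. Probes without a gene symbol were left out of this list, and the closest of them lay at 0.60. SIX3, a homeobox factor of the forebrain and eye, had log2 ratios of -0.23, -1.08, -0.46 and -0.36. CWC25, a spliceosome protein, had -0.27, -1.24, -0.15 and 0.034. Replicate 2 was the lowest array for both, as it was for ID3. RGS2, a regulator of G protein signalling, had -0.33, -1.50, -0.83 and 0.89, and KCTD8, an auxiliary subunit of GABA type B receptors, had -1.13, -1.08, -0.35 and 0.15. BTG4, which promotes the decay of maternal mRNA in oocytes and early embryos, had -1.23, -1.92, 0.22 and -0.34. The signals of SIX3, RGS2 and BTG4 reached at most 2.83, 3.06 and 3.01 times the negative control, against 7.25 for CWC25 and 105 for KCTD8. RGS2 and BTG4 were above background in the 10-month sample of only 3 arrays. These 5 genes were chosen on the same age contrast as ID3, so their ratios are a description with no test.

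BTG4 also belongs to a list of oocyte markers. On that list 12 genes were tested, 3 higher and 9 lower at 10 months, with a median of -0.085. The 12 tested trophectoderm markers had the same split, with a median of -0.11. Of the 7 tested inner cell mass markers 5 were higher and 2 lower, with a median of 0.070. Over all 13495 genes tested 6642 were higher and 6853 lower, with a median of -0.0026. On the oocyte list, 7 genes were above background in both samples of all arrays. The summed signal of the oocyte list was 76.8 to 192 times the negative control in the 10-month samples and 68.5 to 217 times in the 16-month samples. Of those 7 oocyte markers, DPPA3 was at 37.96 to 106 times the control and KPNA7 at 10.8 to 107 times, and embryos are known to express both. The rest of the 7 were dimmer. OOEP was at 1.45 to 3.28 times, MOS at 2.20 to 2.57, FIGLA at 1.36 to 2.11, H1-8 at 1.39 to 1.92 and BMP15 at 1.30 to 1.84. The single probes of GDF9 and ZAR1 were too dim to be tested. For cumulus cells, 5 of 12 tested markers were above background in all samples, PTGS2 at 3.67 to 52.9 times the control among them, and the summed signal was 18.6 to 60.1 times the control at 10 months and 23.5 to 100.1 times at 16 months. The single probes of AMH and FOXL2 were too dim to be tested. Sperm markers were above background in all samples for 0 of 7 genes, and leukocyte and erythroid markers for 2 of 6. Of all genes tested, 66.3% were. The part of such transcripts in the ID3 ratio was not tested.

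Upstream of the ID genes, no tested gene of the BMP pathway passed either threshold. Of 65 listed genes, 61 had a probe and 51 were tested, each by its brightest tested probe. Of the 51, 35 (68.6%) were above background in both samples of all arrays, against 66.3% of all genes tested. None of the 51 passed the adjusted test in limma, none fell below an unadjusted p of 0.05, and 29 were higher and 22 lower at 10 months. Over all 13495 genes tested, 6642 were higher and 6853 lower. Of all genes tested, 2.41% were below an unadjusted p of 0.05 and higher and 2.06% were below it and lower. The median log2 ratio of the pathway was 0.024, against -0.0026 for all genes, and it changed sign with median centring in place of loess (-0.0086), without replicate 1 (-0.012) and with the sign of replicate 3 turned (-0.030).

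Among the ligands, BMP4 had log2 ratios of -0.016, -0.083, -0.34 and -0.21 and a fitted value of -0.16 ± 0.11 (SE, n = 4). It was lower at 10 months on all 4 arrays, by small amounts, and its signal was only 1.46 to 2.28 times the negative control. BMP7 had 0.69, 0.48, 0.16 and -0.53, with a fitted value of 0.20 ± 0.15, and was far above background, at 50.5 to 277 times the negative control. Of 9 tested ligands 6 were higher and 3 lower.

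Among the receptors, the type I receptor BMPR1B had 0.71, 1.14, 0.080 and -0.63 with a fitted value of 0.33 ± 0.16, and its 2 probes differed, with a mean of 0.097. The type II receptor BMPR2 had a fitted value of -0.070 ± 0.13 and a signal of 1.35 to 2.11 times the negative control. The BMP co-receptor HJV had 0.22 ± 0.13 and was above background in the 10-month sample of 3 arrays and the 16-month sample of 2. Of 10 tested receptor genes 8 were higher and 2 lower, none past either threshold, beside 6642 higher and 6853 lower over all genes.

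The SMADs that carry the signal to the ID genes had fitted values on both sides of 0. SMAD1 had log2 ratios of -0.15, -0.35, -0.26 and 0.66, with a fitted value of -0.025 ± 0.16 (SE, n = 4). It was lower on 3 arrays and clearly higher on replicate 4. SMAD9 had a fitted value of -0.13 ± 0.16 and a signal of 1.15 to 1.74 times the negative control. SMAD4, the shared partner, had 0.12 ± 0.14 by its brightest probe and a mean of -0.037 over 3 probes. The SMAD5 probe was too dim to be tested.

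Inhibitors of the pathway were likewise mixed. Among the secreted antagonists, FSTL1, a follistatin-like protein, had -0.14 ± 0.13 and GREM1, which binds BMP2 and BMP4, had 0.11 ± 0.14. The GREM1 signal was 1.28 to 2.02 times the negative control. Of 11 tested antagonists 5 were higher and 6 lower. Among 9 inhibitors that act inside the cell, 4 were higher and 5 lower. The phosphatase PPM1A, which acts on SMADs, had -0.28 ± 0.17 and the ubiquitin ligase SMURF2 had -0.20 ± 0.13.

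Other direct BMP targets give the closest comparison for the ID genes. SMAD6 and SMAD7 are inhibitory SMADs induced by BMP signalling as a feedback. SMAD6 had log2 ratios of -0.60, -0.72, 0.76 and 0.29, changing sign with the dye orientation as ID1 did but in the opposite sense, and a fitted value of -0.069 ± 0.13. SMAD7 had a fitted value of 0.18 ± 0.13. Its signal was 1.09 to 1.61 times the negative control, above background on 3 of 4 arrays in samples of either age. TBX2, a T-box repressor, had 0.24 ± 0.14 by its brightest probe and 0.11 as the mean of 2 probes. HEY1, a target shared with Notch signalling, had 0.16 ± 0.12. Of 9 genes on the list of other targets 5 were higher and 4 lower, with a median of 0.024.

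**Figure D3:**
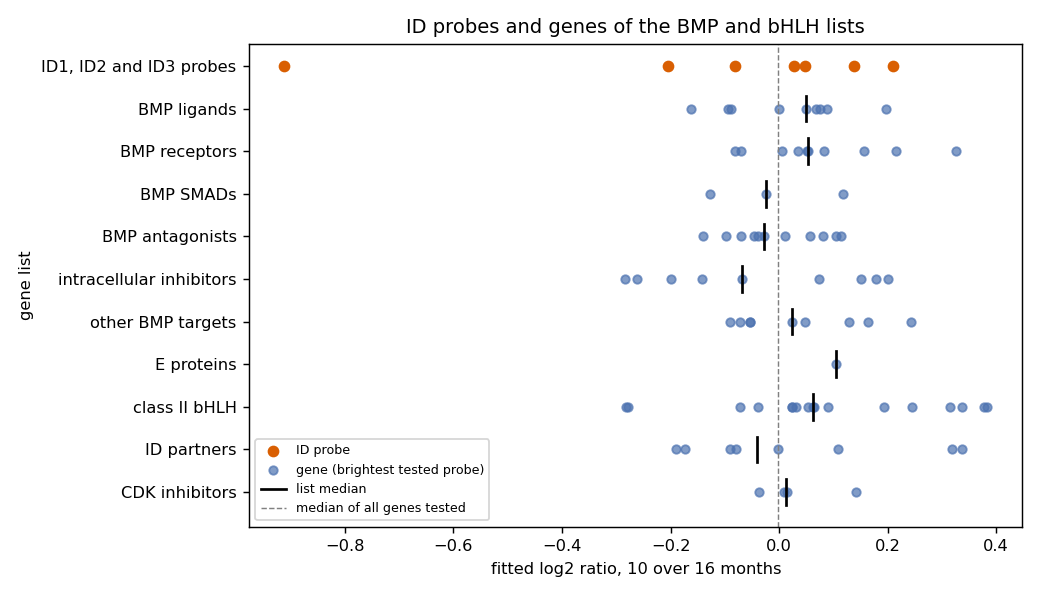
Fitted log2 ratio of 10 over 16 months (horizontal axis) of the 7 ID probes in orange and of the tested genes of each BMP, bHLH and ID partner list in blue, 1 row a list, with list medians as black bars and the median of all genes as a dashed line. The brightest ID3 probe at -0.91 lies to the left of all other points, which run from -0.28 to 0.38.

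Downstream of the ID proteins, the bHLH factors they restrain were measured in part. TCF12 was the 1 E protein with a probe, and TCF3 and TCF4 had none under those symbols. TCF12 had log2 ratios of -0.053, 0.51, 0.26 and -0.29 and a fitted value of 0.10 ± 0.15 (SE, n = 4). It was higher on 2 arrays and lower on 2.

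Of 31 bHLH genes listed, 18 were tested. In the age fit 14 were higher and 4 lower at 10 months, with a median log2 ratio of 0.063. Over all 13495 genes tested 6642 were higher and 6853 lower, with a median of -0.0026. Of the 18 bHLH genes, only 8 (44.4%) were above background in both samples of all arrays, against 66.3% of all genes. None of the 18 passed the adjusted test in limma. MSC, a repressor also known as musculin, was the 1 gene of the 18 that was higher at an unadjusted p under 0.05, against 2.41% of all genes. Its log2 ratios were 0.82, 0.67, 0.23 and -0.18, with a fitted value of 0.38 ± 0.13.

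HAND1, a bHLH factor needed for trophoblast giant cells in the mouse, was the 1 of 18 that was lower at that threshold, against 2.06% of all genes. Its log2 ratios were 0.20, -0.032, -0.72 and -0.56 and its fitted value was -0.28 ± 0.12. The probe was above background on 2 of 4 arrays in samples of either age, so much of this ratio rests on signals near the negative control. Without replicate 4, 3 bHLH genes passed the adjusted test in limma, all higher at 10 months, against 4.56% of all genes in that setting. They were MYF6, ASCL2 and TCF15, and they were chosen after their values were seen. In that setting their fitted values were 0.64, 0.52 and 0.66, against 0.38, 0.31 and 0.34 with all 4 arrays, where none passed. Replicate 3, which then stands alone in its dye orientation, had the highest log2 ratio of each, at 1.04, 0.74 and 1.40.

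Among other proteins that ID factors bind, 3 of 8 tested genes were higher and 5 lower, none past either threshold. The ETS factor ELK1 had log2 ratios of 0.52, 0.55, 0.43 and -0.23 and a fitted value of 0.32 ± 0.14. It was higher at 10 months on 3 arrays and lower on replicate 4. GATA4 had -0.11, -0.24, -0.12 and -0.29, lower on all 4 arrays, with -0.19 ± 0.12.

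Cyclin-dependent kinase inhibitors are known in other cells to be held down by ID proteins. CDKN1A, which encodes p21, had log2 ratios of 0.021, -0.31, 1.06 and -0.20 and a fitted value of 0.14 ± 0.20. Only replicate 3 was clearly higher at 10 months. CDKN1B, which encodes p27, had a fitted value of -0.037 ± 0.12. Of 4 tested inhibitors 3 were higher and 1 lower, with a median of 0.012.

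The ID3 value was recomputed under 12 other settings, and it stayed negative in each. Several of these settings could not change its sign. All 4 single-array ratios were below 0, so the value stays negative whichever array is left out. Without the dye term, or without the filter on dim probes, it is -0.91 by construction. Over the 12 settings it ran from -1.34 without replicate 1 to -0.38 with the sign of replicate 3 turned. Without replicate 2 it was -0.49 and without replicate 3 it was -0.74. Without replicate 4 it was -1.08, and in that setting alone it passed the adjusted threshold (limma, adjusted p = 0.0309), along with 1858 probes in all (5.11%). The probe is not part of the set when both channels must be above background on all 4 arrays, because of its 10-month spot on replicate 3.

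**Figure D4:**
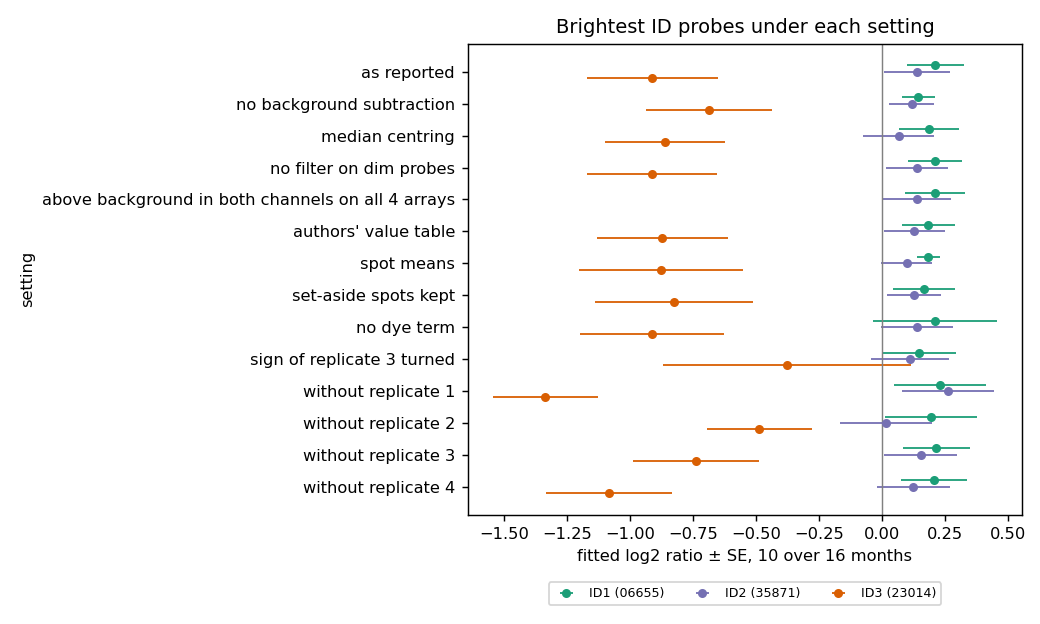
Fitted log2 ratio of 10 over 16 months with its standard error (horizontal axis) of the brightest ID1, ID2 and ID3 probes under each setting (vertical axis). ID3 is below 0 in each setting where it was tested, from -1.34 to -0.38, and ID1 and ID2 are above 0 in all 14, between 0.016 and 0.26.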

How the data were processed

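The authors' deposited scan files gave, per the file headers, foreground and local background intensity of each spot at both wavelengths, not normalised. Log2 ratios were in the authors' deposited value table. The submitters' processing notes name limma for it, and its version, background correction and filters were not given in the sources used here. The table ran Cy5 over Cy3, since each column correlated with its own array's normalised ratio at r = 0.978 to 0.991, and its column medians were -0.016, -0.014, -0.0057 and -0.0090. Whether it was centred on purpose is unknown. Per the labels' protocols, RNA was amplified and then labelled chemically. The scanner software was not given in the sources used here.

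Spot medians were processed with limma 3.58.1 in R 4.3.3, by normexp (offset 50) and loess within arrays, control spots at weight 0. Spots set aside by the scan software were left out. A probe was tested if 2 or more arrays had it above background in 1 channel or both. Of 43794, 175 were left out because a spot had been set aside and 7294 because they were dim. The fit (lmFit, eBayes) had a dye and an age coefficient, 2 residual degrees of freedom and 5.72 from the prior, with Benjamini-Hochberg adjustment over 36325 probes. Age ratios run 10 over 16 months, errors of fitted values are those of the model, and single-array ratios keep the dye effect. Signals compared across arrays were scaled by A-quantile normalisation. The fit was tested on simulated data.

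The number of arrays limits precision, and the negative control limits sensitivity. Gene symbols are the platform's and can be old, and 22004 of 43794 probes have none. A gene with several probes is represented by its brightest tested probe. The ID genes and the gene lists were chosen with earlier results of these data known, so no test was run over them. Named genes are the ID probes, the 2 list genes of smallest p in each list, 11 fixed pathway genes and the 5 genes closest to ID3. Alternatives covered background correction, scaling, filters, the authors' table, spot means, set-aside spots, the dye term, the sign of replicate 3 and each replicate left out.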

Additional observations from a re-analysis of the deposited data

Results flagged for a closer look

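The 4 single-array ratios of 35 ID probes and named genes were examined for a value far from the other 3, by Dixon's ratio of gap to range, and chance marks about 1 in 20 such groups. ID2 was marked on replicate 2, where its log2 ratio of 0.51 stood apart from 3 values between -0.022 and 0.037 (gap over range 0.891). ELK1 was marked on replicate 4, where its ratio of -0.23 stood apart from 3 values between 0.43 and 0.55 (0.847). The value of -2.17 of the brightest ID3 probe on replicate 2 had a ratio of 0.658, below the critical value.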

How the results depend on the processing

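The count of probes past the adjusted threshold for sire age was 0 in all settings that kept the 4 arrays. Leaving out each array in turn gave 0 to 1858 probes, the highest without replicate 4 and 6 without replicate 3, and 0 to 1 of the ID probes. With 3 arrays, 1 dye orientation has a single array, which is assumed to vary like the others, and why the count changed was not tested. ID1 stayed positive in 13 settings (0.14 to 0.23) and ID2 in 13 (0.016 to 0.26). Of the dimmer ID3 probes, EMBV3_32224 changed sign in 3 of 13 settings, EMBV3_37773 in 2 of 12, EMBV3_26261 in 1 of 12 and EMBV3_39107 in 1 of 12. Requiring both channels above background on all arrays left these last 3 untested. The list and named-gene values under other settings, those of the ID1 dye ratio and the distances without the dye effect were added after seeing the data. Beyond the pairing of both ages on each array, which the ratio already holds, no further pairing was fitted. No paired analysis by bull was possible because the labels do not tie arrays to bulls. The negative control limits what the 4 dimmer ID3 probes can show.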
